A study of Mus musculus with 40 samples.

Results

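The 9 genes described here encode contractile proteins that mark smooth muscle: the actins Acta2 and Actg2, transgelin (Tagln), the calponins Cnn1 and Cnn2, the tropomyosins Tpm1 and Tpm2, the myosin regulatory light chain Myl9 and the myosin light chain kinase Mylk. They were taken by symbol from the 23228 genes present in all 8 RNA libraries, and each of the 9 was found. They were selected on RPKM with and without retinoic acid (RA) in these same libraries, in which Acta2 and Tagln were among the largest increases. Levels with RA against levels without it are therefore given below as a description, without a test. The genotype comparisons are tested, but they use the same libraries, and their earlier results were known when the list was made.

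The libraries came from mouse embryonic stem cells of strain background C57BL/6 (mixed), either wild type or homozygous for GLP 3A, a mutant form of GLP. GLP, the product of Ehmt1, methylates lysine 9 of histone H3, and the study asks how GLP propagates histone modifications. Each genotype was studied untreated and after 1 uM all-trans RA, with 2 libraries in each of the 4 groups. All cells had been grown on feeders with serum and LIF and then without feeders in 2i medium for 2 passages, and LIF was taken away when RA was given, so that the effects of RA and of LIF withdrawal cannot be told apart. The mutation was made by targeting R1 stem cells, and the GLP 3A cells trace back to clones picked there. For the number of lines per genotype and the duration of RA, the labels give nothing. Nothing in the labels says that the 2 libraries of a group were separate cultures, so the p-values below cover the spread among these samples alone, which may be technical.

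Smooth muscle shortens when myosin pulls on thin filaments of actin. Tropomyosin and calponin lie along those filaments, transgelin binds them, and myosin becomes active when the kinase Mylk phosphorylates its regulatory light chain. Transcription of many of these genes is driven by serum response factor (SRF), which binds a short element called the CArG box, together with the coactivators myocardin and the myocardin-related factors Mkl1 and Mkl2. Several of the proteins are also made in fibroblasts, in early heart and skeletal muscle and in other cells that spread on a surface, so none of them alone identifies smooth muscle.

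The promoters of Acta2, Myl9 and Cnn2 are shown because they hold the sequence through which SRF is known to act on this set of genes. RefSeq promoter sequences (GRCm38.p6) were found for 7 of the 9 genes, all but Tagln and Actg2, and the 250 bases before each transcription start were searched. A CArG box was taken as CC, 6 bases that are each A or T, and GG, which is the same motif on both strands. A CArG-like box has exactly 1 C or G among those 6 bases, so the 2 motifs do not overlap by definition. The stretches lie at chr19:34255374-34255623 on the minus strand for Acta2, chr2:156775214-156775463 on the plus strand for Myl9 and chr10:79988350-79988599 on the plus strand for Cnn2. They run 5′ to 3′ and end at the base before the start, with the boxes in capitals.
Acta2: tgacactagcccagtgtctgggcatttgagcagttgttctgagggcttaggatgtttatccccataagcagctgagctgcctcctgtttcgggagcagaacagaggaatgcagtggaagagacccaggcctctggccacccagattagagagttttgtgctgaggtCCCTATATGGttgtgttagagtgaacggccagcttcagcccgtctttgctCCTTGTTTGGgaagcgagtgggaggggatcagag
Myl9: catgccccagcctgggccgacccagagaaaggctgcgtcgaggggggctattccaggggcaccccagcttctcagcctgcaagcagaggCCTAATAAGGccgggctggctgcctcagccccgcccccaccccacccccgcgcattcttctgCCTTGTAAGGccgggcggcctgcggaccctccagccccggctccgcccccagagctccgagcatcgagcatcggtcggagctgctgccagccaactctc
Cnn2: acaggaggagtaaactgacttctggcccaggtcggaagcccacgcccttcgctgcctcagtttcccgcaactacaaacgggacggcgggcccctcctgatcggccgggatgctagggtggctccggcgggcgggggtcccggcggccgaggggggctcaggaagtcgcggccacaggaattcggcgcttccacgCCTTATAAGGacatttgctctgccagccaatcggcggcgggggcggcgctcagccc
Acta2 held 2 CArG-like boxes, CCCTATATGG beginning 84 bases and CCTTGTTTGG beginning 34 bases before the start. Myl9 held the CArG box CCTAATAAGG at 161 bases and the CArG-like box CCTTGTAAGG at 99 bases. Cnn2 held 1 CArG box, CCTTATAAGG, at 56 bases. In the promoters of Cnn1, Tpm1, Tpm2 and Mylk neither motif was present in this window. Among 32851 RefSeq promoters of the same length, 482 (1.47%) held a CArG box and 2380 (7.24%) a CArG-like box, against 2 of the 7 contractile gene promoters for each motif. These matches describe sequence only and say nothing of binding in these cells.

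The 8 libraries were deposited as RPKM, reads scaled to gene length and library size, with no read counts. Relative depth, judged by the smallest steps among low values, was 0.95 to 1.24 in the replicate 1 libraries and 0.43 to 0.56 in the replicate 2 libraries, so low values rest on fewer reads in replicate 2. Ehmt1, the gene altered in GLP 3A, measured 18.4 and 17.6 RPKM in wild type without RA, 14.1 and 14.3 in GLP 3A without RA, 24.4 and 23.5 in wild type given RA and 13.0 and 13.9 in GLP 3A given RA, lower in the mutant in both states. Because the values come from bulk RNA, fewer cells of a type and less RNA per cell cannot be told apart.

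Summed over the 9 contractile genes, levels with RA were far above those without it. The sum was 87.1 and 86.8 RPKM in wild type without RA and 153 and 149 RPKM in GLP 3A without RA. It was 2221 and 3146 RPKM in wild type given RA and 3612 and 2849 RPKM in GLP 3A given RA. As a percentage of all RPKM in the library, this was 0.0116 and 0.0114 in wild type without RA, 0.0186 and 0.0193 in GLP 3A without RA, 0.419 and 0.567 in wild type given RA and 0.709 and 0.555 in GLP 3A given RA. Each RA library lay above each untreated library of its genotype.

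Acta2, the alpha-actin of vascular smooth muscle (chromosome 19, 34315580 to 34329826 in mm9), was low before RA. It stood at 1.30 and 2.00 RPKM in wild type without RA and 3.84 and 3.20 RPKM in GLP 3A without RA. With RA it reached 226 and 416 RPKM in wild type and 759 and 459 RPKM in GLP 3A. The 4 groups did not overlap and ran in the order wild type without RA, GLP 3A without RA, wild type given RA, GLP 3A given RA. On the scale of log2(RPKM + 1), which understates the change of genes with low values, RA minus untreated was 6.87 in wild type and 7.04 in GLP 3A. The ratio of the mean RPKM was 195 in wild type and 173 in GLP 3A.

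Actg2, the gamma-actin of gut smooth muscle (chromosome 6, 83462902 to 83486245), remained scarce throughout. It was listed at 0.0416 and 0 RPKM in wild type without RA and at 0.0441 and 0 RPKM in GLP 3A without RA. With RA it measured 1.82 and 3.20 RPKM in wild type and 8.0 and 4.67 RPKM in GLP 3A. The genotypes overlapped without RA and were apart with it, and each RA library lay above the untreated ones. Because both untreated replicate 2 libraries listed it at 0, no ratio is given. It passed the filter on low values, at least 1 RPKM in at least 2 libraries, only through the 4 RA libraries.

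Tagln, an actin-binding protein that is an early marker of smooth muscle (chromosome 9, 45671773 to 45744141), had the second highest level of the 9 genes after RA. Its level was 5.85 and 6.13 RPKM in wild type without RA and 12.8 and 10.9 RPKM in GLP 3A without RA. With RA it was at 659 and 831 RPKM in wild type and 1078 and 708 RPKM in GLP 3A, so the genotypes were apart without RA and overlapped with it. RA minus untreated was 6.73 in wild type and 6.09 in GLP 3A on the log2 scale. The files give Tagln 1 locus with Pcsk7 and Rnf214, so reads could be split between them.

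Cnn1, the calponin most restricted to smooth muscle (chromosome 9, 21903696 to 21913665), measured 0.517 and 0.599 RPKM in wild type without RA and 1.13 and 1.87 RPKM in GLP 3A without RA. With RA it reached 30.4 and 49.2 RPKM in wild type and 79.5 and 55.9 RPKM in GLP 3A. None of the 4 groups overlapped another. Cnn2, a calponin made in many cell types (chromosome 10, 79451344 to 79458145), began far higher, at 31.0 and 32.4 RPKM in wild type without RA and 51.7 and 51.1 RPKM in GLP 3A without RA. After RA it was at 228 and 297 RPKM in wild type and 300.1 and 262 RPKM in GLP 3A, which overlap. The RA difference was 4.67 in wild type and 4.77 in GLP 3A for Cnn1, and 3.00 and 2.43 for Cnn2, on the log2 scale.

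Tpm1 (chromosome 9, 66870399 to 66897020) was the most abundant contractile gene in each of the 4 groups. Its level was 40.0 and 37.1 RPKM in wild type without RA, 72.3 and 70.6 RPKM in GLP 3A without RA, 940.4 and 1371 RPKM in wild type given RA and 1117 and 1152 RPKM in GLP 3A given RA. The genotypes were well apart without RA, and with RA both GLP 3A values lay between the wild-type ones. Tpm2 (chromosome 4, 43527583 to 43536260) showed the opposite arrangement. It measured 7.67 and 7.98 RPKM in wild type without RA and 8.69 and 8.39 RPKM in GLP 3A without RA, a narrow gap, then 44.1 and 57.9 RPKM in wild type given RA and 84.3 and 73.1 RPKM in GLP 3A given RA. RA minus untreated was 4.85 in wild type and 3.97 in GLP 3A for Tpm1, and 2.55 and 3.06 for Tpm2, on the log2 scale.

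Myl9, the regulatory light chain of smooth muscle and non-muscle myosin (chromosome 2, 156601199 to 156607393), had 0.715 and 0.453 RPKM in wild type without RA and 2.30 and 2.67 RPKM in GLP 3A without RA. It had 89.6 and 119 RPKM in wild type given RA and 185 and 134 RPKM in GLP 3A given RA. The groups did not overlap, and the ratio of mean RPKM with and without RA was 179 in wild type and 64.1 in GLP 3A. Mylk, the kinase that acts on this light chain (chromosome 16, 34785035 to 35002520), was far scarcer than its substrate. It was at 0.0808 and 0.0900 RPKM in wild type without RA, 0.0388 and 0.14 RPKM in GLP 3A without RA, 1.11 and 0.920 RPKM in wild type given RA and 0.580 and 0.694 RPKM in GLP 3A given RA. Mylk was the only contractile gene whose RA-treated wild-type libraries both lay above the RA-treated GLP 3A libraries. With 1 library at 1 RPKM it did not pass the filter and was not tested, and it shares its locus with 1700119H24Rik and E130310I04Rik.

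**Figure D1:**
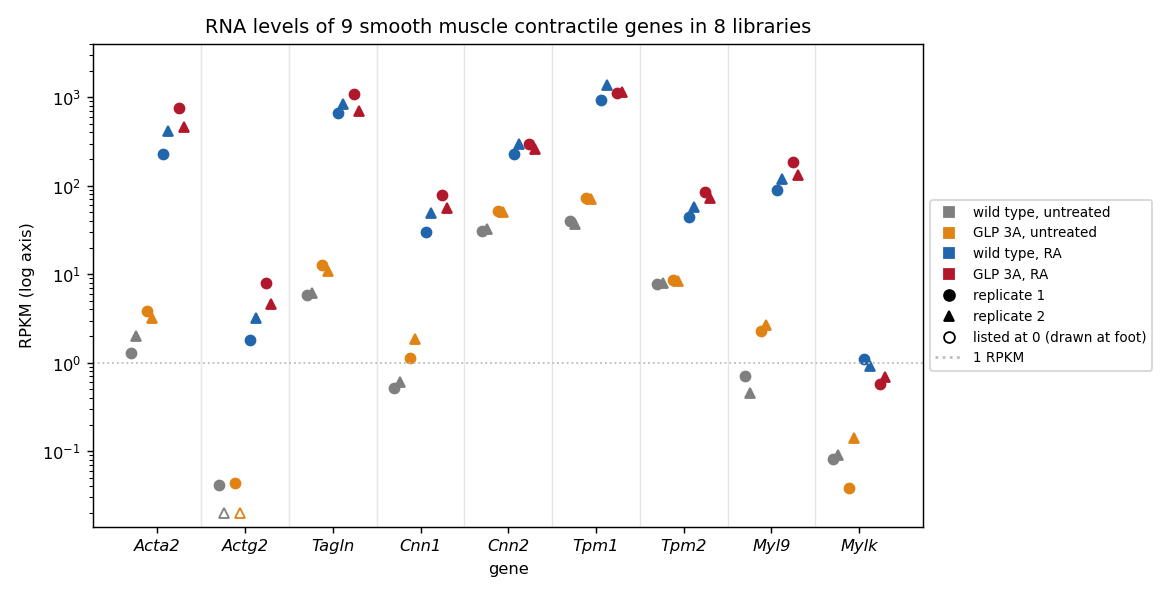
RNA level of each of the 9 contractile genes in RPKM on a log axis, with 1 point per library, coloured by group and shaped by replicate (open points were listed at 0). Except for Mylk, the RA-treated libraries sit above 1 RPKM, and Acta2, Tagln, Cnn2 and Tpm1 reach 226 RPKM or more in each RA library.

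The order of the 9 genes by RPKM, a measure per length that permits comparison between genes, changed with RA. In wild type without RA Tpm1 led, followed by Cnn2, Tpm2, Tagln and Acta2, with gaps larger than the spread between the 2 libraries. Myl9 and Cnn1 came next and overlapped, and Mylk and Actg2 were lowest. In GLP 3A without RA Tagln stood above Tpm2 and Myl9 above Cnn1, and the order was otherwise the same. In wild type given RA Tpm1 still led and Tagln was second. Acta2 and Cnn2 followed with overlapping values, then Myl9, then Tpm2 and Cnn1, which overlapped each other, then Actg2 and Mylk. In GLP 3A given RA Tagln and Acta2 also overlapped, at 708 to 1078 and 459 to 759 RPKM, Acta2 lay above Cnn2 without overlap, and the other genes kept the order of wild type given RA.

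The 8 contractile genes that passed the filter were all 2-fold or more higher with RA, with no overlap, in wild type and in GLP 3A; among all 13198 genes that passed it this held for 15.7% in wild type and 15.1% in GLP 3A. Nothing is read from that count, because the response to RA was known when the list was made and Actg2 passed through its RA libraries alone. Myl9 and Cnn1 passed through the RA libraries and the untreated GLP 3A libraries. The size of the difference ranged widely, from 1.75 for Actg2 to 6.87 for Acta2 in wild type and from 2.43 for Cnn2 to 7.04 for Acta2 in GLP 3A, on the log2 scale.

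Which member of a protein family supplied most of its RNA also differed with RA. Tagln made up 3.67% and 3.80% of transgelin family RPKM in wild type without RA and 10.5% and 9.12% in GLP 3A without RA. With RA it made up 71.9% and 77.6% in wild type and 79.5% and 78.9% in GLP 3A, in place of Tagln2, a form made in many tissues. Tpm1 went from 10.3% and 9.30% of tropomyosin RPKM in wild type without RA to 63.6% and 69.2% with RA, and from 13.9% and 13.7% to 66.0% and 66.2% in GLP 3A. Tpm3, a mostly cytoskeletal form that had held between 76.0% and 79.8% in the untreated libraries, held between 14.4% and 17.9% with RA.

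The actins and calponins were redistributed less. Acta2 held at most 0.142% of actin family RPKM in any untreated library. With RA it held 6.58% and 11.4% in wild type and 15.2% and 11.9% in GLP 3A, while the cytoskeletal actin Actg1 remained the largest, at 60.6% to 68.3%. Actin genes are alike in parts of their coding sequence, and no source used here says how reads shared between them were divided. The share of Cnn2 went from between 11.2% and 19.0% in the untreated libraries to between 43.1% and 49.6% with RA, and Cnn3 held the rest but for Cnn1, which had 5.74% and 7.52% in wild type given RA and 13.1% and 9.53% in GLP 3A given RA. These shares describe the libraries and were not tested.

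**Figure D2:**
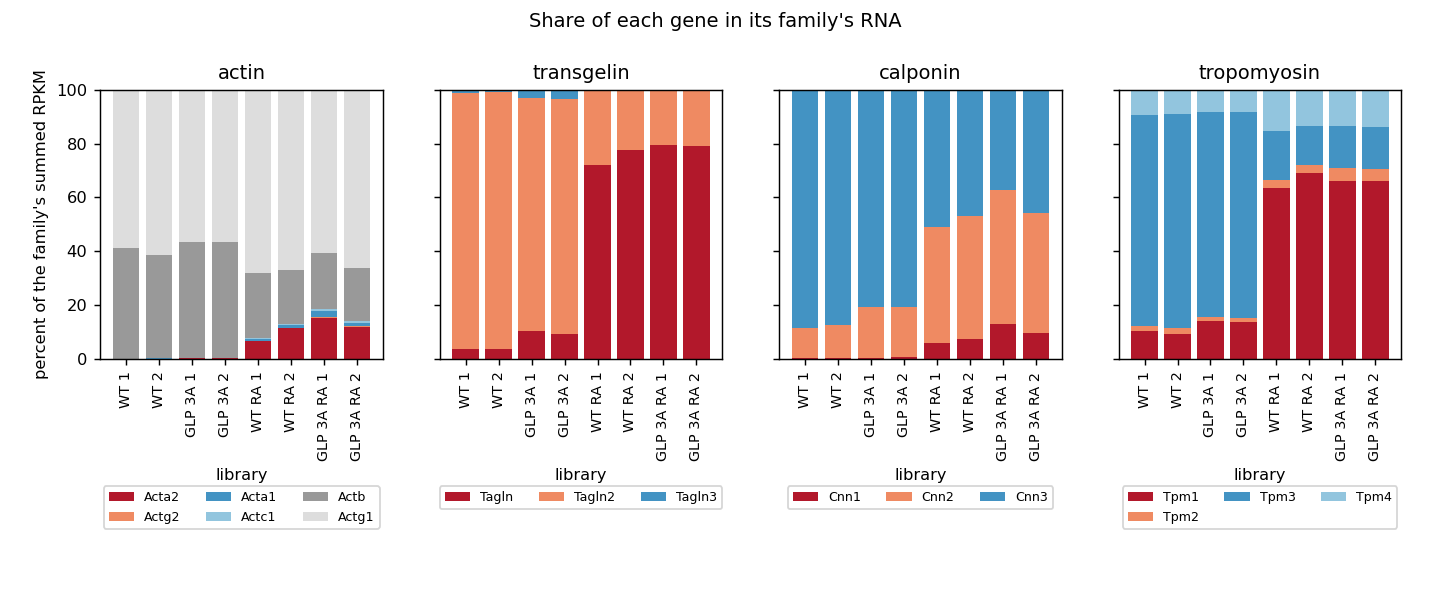
Share of each gene in the summed RPKM of its family (percent, stacked bars), for the actin, transgelin, calponin and tropomyosin families in each of the 8 libraries. Tagln and Tpm1 (dark red) take the largest share of their family in the 4 RA libraries, at 71.9% or more and 63.6% or more, but not in the untreated ones.

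Whether GLP 3A altered the contractile genes before RA was tested with limma across all 13198 genes on log2(RPKM + 1), calling a gene at a Benjamini-Hochberg adjusted p under 0.05. Of the 8 genes tested, 4 were called higher in GLP 3A without RA and 0 lower, where 7.52% of all genes were called higher, 4.15% lower and 11.7% in either direction. Myl9 differed most, by 1.14 ± 0.20 on the log2(RPKM + 1) scale (SE, n = 2 per genotype, adjusted p = 0.019). Its mean RPKM, without the added 1, was 4.26 times that of wild type. That ratio rests on low values, 0.715 and 0.453 RPKM in wild type and 2.30 and 2.67 RPKM in GLP 3A. Tpm1 rose by 0.87 ± 0.17 (adjusted p = 0.0252, 1.85 times), Cnn2 by 0.68 ± 0.13 (adjusted p = 0.0271, 1.62 times) and Tagln by 0.88 ± 0.21 (adjusted p = 0.0493, 1.98 times).

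The other 4 genes did not pass. Acta2 differed by 0.78 ± 0.35 (adjusted p = 0.207) and Cnn1 by 0.67 ± 0.28 (adjusted p = 0.176), at levels of 0.517 to 3.84 RPKM. Myl9, which was called, lay about as low. Tpm2 differed by 0.11 ± 0.14 (adjusted p = 0.667), and Actg2, listed at 0 in 1 library of each genotype, by 0.00 ± 0.26. Both GLP 3A libraries lay above both wild-type libraries for 7 of the 8 genes, as they did for 40.3% of all genes. The median difference of the 8 genes was 0.73, beside 0.04 over all genes tested.

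These calls rest on all 4 untreated libraries. Leaving out any 1 of them, after which the lone library of that group is assumed to vary like the others, left 0 of the 4 calls, with adjusted p from 0.0884 to 0.129 for Myl9, 0.125 to 0.152 for Tpm1, 0.133 to 0.16 for Cnn2 and 0.157 to 0.238 for Tagln. When replicate 1 or 2 of wild type given RA was left out, Tagln had an adjusted p of 0.0603 or 0.0601. Over all genes, calls in GLP 3A without RA were 64.4% higher ones with RPKM as deposited, 54.1% under median-of-ratios scaling and 53.2% under quantile normalization. The 4 differences had the same sign under both, but Tagln was not called under median-of-ratios scaling (0.83, adjusted p = 0.0578), and only Myl9 was called under quantile normalization, with Tagln at 0.77 (adjusted p = 0.0887). With no filter on low values 0 of the 4 were called, with adjusted p from 0.068 to 0.135. With the replicate number, along which depth also differed, as a block, 3 were called and Tagln was not (adjusted p = 0.0533).

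With RA 1 of the 8 contractile genes was called between genotypes. This was Tpm2, higher in GLP 3A by 0.62 ± 0.14 (SE, n = 2 per genotype, adjusted p = 0.0403 by limma) or 1.54 times in mean RPKM. Among all genes 5.30% were called higher, 5.31% lower and 10.6% in either direction. Actg2 differed by 1.05 ± 0.26 (adjusted p = 0.0563), Acta2 by 0.94 ± 0.35 (adjusted p = 0.137), Cnn1 by 0.77 ± 0.28 (adjusted p = 0.127) and Myl9 by 0.60 ± 0.20 (adjusted p = 0.109), and none of these was called, although both GLP 3A libraries lay above both wild-type libraries in each, as for 24.1% of all genes. Tagln differed by 0.24 ± 0.21 (adjusted p = 0.498), Cnn2 by 0.11 ± 0.13 (adjusted p = 0.631) and Tpm1 by -0.00 ± 0.17 (adjusted p = 0.998), and in these 3 the genotypes overlapped. At an unadjusted p under 0.05 the count was 5 of 8, beside 29.2% of all genes.

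Over all genes, the GLP 3A libraries given RA were the least alike of any group. The SD of the log2 difference between replicates was 0.70, against 0.47 to 0.56 in the other groups. In GLP 3A given RA, replicate 1 was the higher one for Acta2, Tagln, Cnn1, Cnn2, Actg2, Tpm2 and Myl9. In wild type given RA, replicate 2 was the higher one for each of these and for Tpm1. By ratio, the replicates of Acta2, Cnn1, Cnn2, Tpm1 and Tpm2 were further apart in wild type given RA. Those of Tagln and Myl9 were further apart in GLP 3A given RA, and those of Actg2 about equally in both. Without RA-treated GLP 3A replicate 2, 3 contractile genes were called: Actg2 (1.39, adjusted p = 0.0206), Tpm2 (0.73, adjusted p = 0.0374) and Myl9 (0.83, adjusted p = 0.0444). The Tpm2 call ended, at adjusted p between 0.0896 and 0.119, without any 1 of the 4 untreated libraries, without RA-treated wild-type replicate 1 or without RA-treated GLP 3A replicate 1, and it was kept (0.82, adjusted p = 0.0374) when replicate 2 of wild type given RA was left out.

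**Figure D3:**
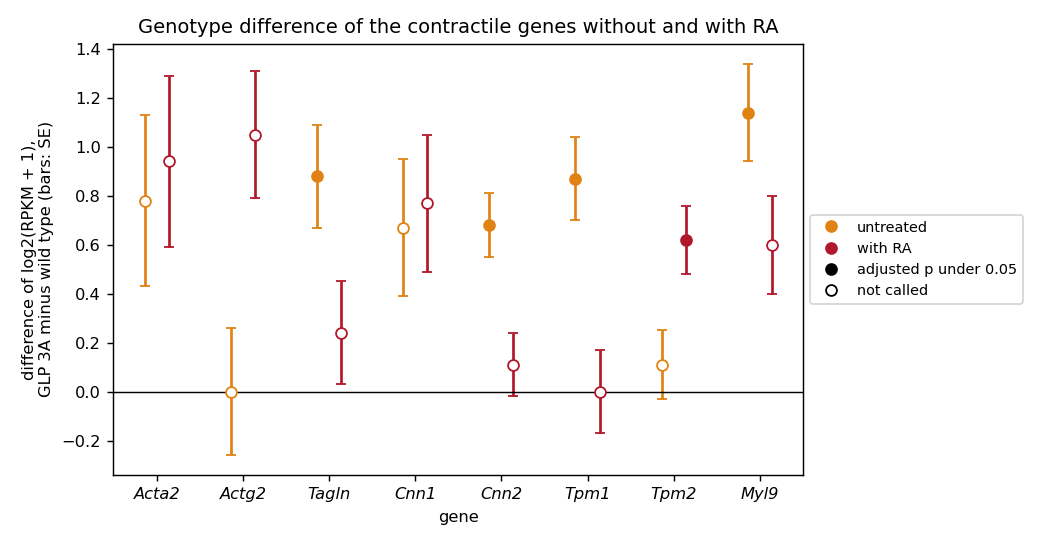
GLP 3A minus wild type on the log2(RPKM + 1) scale for the 8 contractile genes tested, without RA (orange) and with RA (red); bars are standard errors and filled points have an adjusted p under 0.05. Myl9, Tagln, Tpm1 and Cnn2 are filled without RA and Tpm2 with RA, and Tagln, Cnn2 and Tpm1 lie at 0.24 or less with RA.

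A gene called in one state and not in the other need not differ between them, so the difference of the RA responses was tested itself. None of the 8 contractile genes was called by limma, where 1.80% of all genes were; at an unadjusted p under 0.05 the count was 4 of 8, beside 20.9% of all genes. Tpm1 had the lowest p, with a response smaller in GLP 3A by 0.88 (-0.88 ± 0.24, adjusted p = 0.113), and Cnn2 (-0.57 ± 0.19, adjusted p = 0.165), Tagln (-0.64 ± 0.30, adjusted p = 0.292) and Myl9 (-0.54 ± 0.28, adjusted p = 0.338) had the same sign. Actg2 (1.05 ± 0.37, adjusted p = 0.187) and Tpm2 (0.51 ± 0.19, adjusted p = 0.205) had the other sign. Acta2 (0.16 ± 0.49) and Cnn1 (0.10 ± 0.39) had small estimates whose sign changed with the pseudocount, to -0.13 and -0.46 at 0.1. Without RA-treated wild-type replicate 1, Tpm1 was called (-1.15, adjusted p = 0.0358).

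Regulators of SRF were listed to see whether the factors above the contractile genes moved as well. Of 13 genes 12 were tested, and without RA limma called 0 between genotypes, beside 11.7% of all genes. At an unadjusted p under 0.05 there were 2, beside 28.3% of all genes. With RA the share of all genes called was 10.6%. With RA 1 was called, the SRF partner Elk4, lower in GLP 3A (-0.49 ± 0.11, adjusted p = 0.0381), a call lost in 7 of 8 fits that each left out 1 library (adjusted p up to 0.124). Srf itself measured 12.4 and 11.4 RPKM in wild type without RA, 15.3 and 14.4 in GLP 3A without RA, 28.4 and 27.0 in wild type given RA and 24.9 and 22.0 in GLP 3A given RA. Its RA responses differed by -0.53 ± 0.12, which was not called (adjusted p = 0.0875). Myocd, the smooth and cardiac muscle coactivator, stayed at 0.333 RPKM or less in every library and was not tested. Mkl1 measured 6.12 to 7.62 RPKM in the untreated libraries and 8.57 to 11.3 RPKM with RA.

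With RA, 4 of the 12 SRF regulators were 2-fold or more higher in wild type and 3 in GLP 3A, and 3 were lower in each. Over all genes 15.7% were higher in wild type and 15.1% in GLP 3A, and 1388 and 1624 of 13198 were lower. Tgfb1i1, a coactivator in smooth muscle, was at 0.225 to 0.335 RPKM untreated and at 13.1 to 18.3 RPKM with RA, a log2 difference of 3.67 in wild type and 3.81 in GLP 3A. Csrp1, a LIM protein of the actin cytoskeleton, differed by 2.69 and 2.94. Klf4, a stem cell factor that represses smooth muscle genes, differed by -4.81 in wild type and -4.63 in GLP 3A. The median difference of the list was 0.29 in wild type and 0.45 in GLP 3A, beside 4.76 and 4.37 for the contractile genes and -0.03 and -0.07 for all genes tested.

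Other genes of the smooth muscle cytoskeleton were mostly higher with RA as well, by less. Of 18 genes 15 were tested, and 11 were 2-fold or more higher in wild type and 12 in GLP 3A with none lower. Over all genes the shares higher were 15.7% in wild type and 15.1% in GLP 3A. The median difference of the list was 1.37 and 1.62. Cald1 (caldesmon, an inhibitor of actomyosin) differed by 4.11 in wild type and 4.32 in GLP 3A, and Lmod1 (leiomodin, an actin nucleator of smooth muscle) by 3.36 and 3.47. Between genotypes limma called 0 without RA, with 3 at an unadjusted p under 0.05 (28.3% of all genes). With RA it called 1, the smooth muscle myosin heavy chain Myh11, higher in GLP 3A by 0.85 ± 0.14 (adjusted p = 0.0209). Over all genes 11.7% were called without RA and 10.6% with RA. The Myh11 call was lost in 6 of 8 fits that each left out 1 library (adjusted p up to 0.0806). Its levels were low even so, at 0.557 and 0.737 RPKM in wild type given RA and 2.30 and 1.66 RPKM in GLP 3A given RA. Des, the intermediate filament protein desmin, differed without RA by -0.65 ± 0.17 (adjusted p = 0.0553).

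Among 16 paralogues of the contractile genes, 14 were tested. Over all genes limma called 7.52% higher without RA and 5.30% higher with RA, and 11.7% and 10.6% in either direction. Tpm3 was the 1 gene called without RA, higher in GLP 3A by 0.35 ± 0.07 (adjusted p = 0.0346). With RA 3 were called higher: Mylpf, a fast skeletal light chain (1.97 ± 0.44, adjusted p = 0.0416), Myl7, an atrial light chain (1.34 ± 0.18, adjusted p = 0.0147), and Actc1, cardiac actin (1.16 ± 0.27, adjusted p = 0.0495). With 1 library left out at a time, the call was lost in 4 of 8 fits for Tpm3 (adjusted p up to 0.197), 6 for Mylpf (0.136), 2 for Myl7 (0.0646) and 7 for Actc1 (0.14). Acta1, skeletal actin, differed by 1.34 ± 0.37 and was not called (adjusted p = 0.0692). Acta1 and Actc1 were the paralogues with the largest positive RA differences, 4.59 and 3.73 in wild type and 5.44 and 4.81 in GLP 3A, and Mylpf the largest negative one, at -5.83 and -3.49.

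Most of the listed genes that act on myosin phosphorylation stayed within 2-fold. Of 16 tested, 5 were 2-fold or more higher with RA in each genotype, beside 15.7% of all genes in wild type and 15.1% in GLP 3A. Among the 5 were the non-muscle myosin Myh10 (3.78 in wild type and 3.42 in GLP 3A) and the small GTPase Rhob (2.90 and 2.14). In wild type 1 was lower and in GLP 3A 0, beside 1388 and 1624 of 13198 genes. Without RA the kinase Rock1 was called higher in GLP 3A (0.33 ± 0.08, adjusted p = 0.0469) and Myh14 lower (-0.39 ± 0.09, adjusted p = 0.0462). With RA the myosin phosphatase inhibitor Ppp1r14a was called lower (-0.61 ± 0.14, adjusted p = 0.046). Over all genes 11.7% were called without RA and 10.6% with RA. With 1 library left out at a time, the call was lost in 4 of 8 fits for Rock1 (adjusted p up to 0.241), 6 for Myh14 (0.242) and 6 for Ppp1r14a (0.141). Ppp1r14a stood at 66.1 and 66.9 RPKM in wild type given RA and 45.9 and 41.0 RPKM in GLP 3A given RA.

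TGF-beta, an inducer of smooth muscle genes, was followed through 15 pathway genes, all tested. With RA 7 were 2-fold or more higher in wild type with none lower, and 5 were higher and 1 lower in GLP 3A. Over all genes 15.7% were higher in wild type and 15.1% in GLP 3A, and 1388 and 1624 of 13198 were lower. The ligand Tgfb2 differed by 3.28 in wild type and 2.62 in GLP 3A. Another ligand, Tgfb1, differed by -0.95 and -0.63, and Smad7, the 1 gene lower in GLP 3A, by -0.95 and -1.62. In each genotype 12 of the 15 differences were positive and 3 negative. Cyr61, a matrix protein also induced by SRF, was called higher in GLP 3A without RA (0.81 ± 0.09, adjusted p = 0.00453), with 12.6 and 13.2 RPKM in wild type and 23.4 and 23.5 RPKM in GLP 3A. With RA it was at 282 and 277 RPKM in wild type and 279.8 and 238 RPKM in GLP 3A, and the difference of its RA responses was called (-0.93 ± 0.12, adjusted p = 0.0306). Ctgf, a related protein, measured 15.4 and 17.0 RPKM in wild type without RA and 42.5 and 41.0 RPKM in GLP 3A without RA (1.31 ± 0.37, adjusted p = 0.0723). Bmp4 was called lower in GLP 3A with RA (-1.59 ± 0.37, adjusted p = 0.0484). Cyr61 was the only 1 of the 15 called without RA and Bmp4 the only 1 with RA, beside 11.7% and 10.6% of all genes. An unadjusted p under 0.05 was reached by 5 of the 15 without RA and 8 with RA, beside 28.3% and 29.2% of all genes. For the difference of RA responses 1.80% of all genes were called. With 1 library left out at a time, the call was lost in 2 of 8 fits for Cyr61 without RA (adjusted p up to 0.0523), in 6 for the difference of its RA responses (0.166) and in 7 for Bmp4 (0.169). Of 7 immediate early genes driven by SRF, such as Fos and Egr1, 6 were tested and limma called 0 between genotypes, with 2 at an unadjusted p under 0.05 without RA and 0 with RA, beside 28.3% and 29.2% of all genes.

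**Figure D4:**
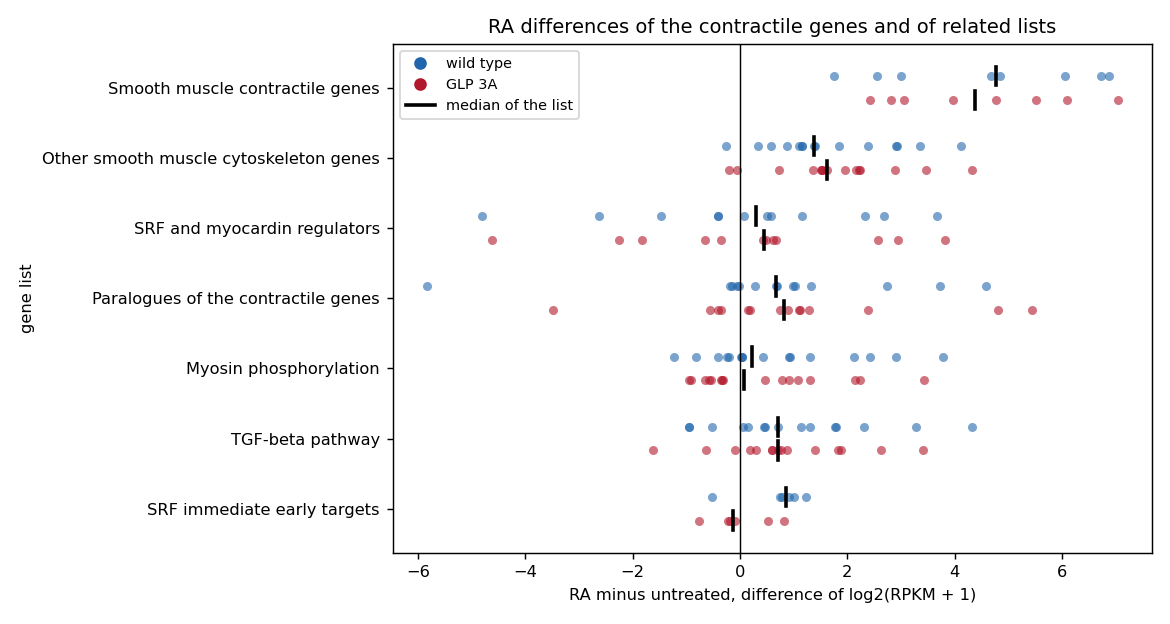
RA minus untreated on the log2(RPKM + 1) scale for each tested gene of the contractile set and of 6 related lists, in wild type (blue) and GLP 3A (red); black ticks mark the median of a list. The contractile genes, chosen with this response known, have medians of 4.76 and 4.37, and the other smooth muscle cytoskeleton genes 1.37 and 1.62.

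The pattern of Acta2 over the 8 libraries was shared by many genes. Pearson's r with Acta2 on log2(RPKM + 1), a description of 8 libraries that fall into untreated and RA-treated sets, was over 0.95 for 1606 of 11877 genes compared. Among the 5 most alike outside the contractile set were Prkcdbp, a caveolar protein (0.9988), Pdlim3, a Z-disc protein (0.9986), Lgals1, a galectin (0.9984), and Col1a1, a fibrillar collagen (0.9980). Within the set, r with Acta2 was 0.998 for Cnn1, 0.997 for Tagln and Tpm2, 0.996 for Myl9, 0.993 for Cnn2, 0.991 for Tpm1, 0.967 for Actg2 and 0.906 for Mylk.

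Markers that define mature smooth muscle were present only in part. Of Myh11, Lmod1, Smtn, Myocd, Des and Kcnmb1, those at 1 RPKM or more in both libraries numbered 3 in wild type given RA (Lmod1, Smtn and Des) and 4 in GLP 3A given RA (also Myh11). Smtn and Des were already at 4.66 RPKM or more in the untreated libraries. Myocd and Kcnmb1 stayed under 0.5 RPKM throughout, Myocd at 0.333 or less and Kcnmb1 at 0.488 or less. The summed level of the 6 was 18.1 to 19.1 RPKM in wild type without RA, 14.1 to 14.6 in GLP 3A without RA, 50.9 to 60 in wild type given RA and 56.8 to 72.1 in GLP 3A given RA. The name smooth muscle is therefore used here for the genes and not for a cell type in these cultures.

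Markers of other cell types that use these genes were summed in the same libraries. The 12 fibroblast markers summed to 5.52 to 5.91 RPKM in wild type without RA, 5.78 to 7.20 in GLP 3A without RA, 137 to 155 in wild type given RA and 95.8 to 147 in GLP 3A given RA; 9 and 8 of them were at 1 RPKM or more in both libraries of the RA groups, and Lum was at 0 in the untreated ones. The 9 cardiac markers summed to 8.44 to 9.92, 20.5 to 22.8, 27.0 to 37.8 and 60.1 to 72.1 RPKM in the same order of groups, with 2, 2, 5 and 7 of the 9 at 1 RPKM or more. Skeletal muscle markers, of which Mylpf and Acta1 made up most, went from 159 to 164 and 125 to 126 RPKM untreated to 32.8 to 44.1 and 71.7 to 159 RPKM with RA, with Myf5 at 0 in all groups but GLP 3A given RA. These sums join opposite changes. Mylpf was at 123 to 163 RPKM untreated and 1.74 to 17.9 RPKM with RA. Acta1 was at 0.378 to 1.01 RPKM untreated and 28.1 to 128 RPKM with RA. Tnnt3 was also higher with RA, by 1.94 in wild type and 3.29 in GLP 3A on the log2 scale.

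Extraembryonic endoderm markers, 7 in number and led by Sparc, summed to 81.5 to 93.5 RPKM in wild type without RA, 244 to 264 in GLP 3A without RA, 535 to 735 in wild type given RA and 536 to 569.7 in GLP 3A given RA. Without RA 1 of the 6 markers tested, Sparc, was called between genotypes, beside 11.7% of all genes, and the median difference of the 6 was 0.05. With RA 1 was called, Sox17, lower in GLP 3A (-1.27 ± 0.27, adjusted p = 0.0373 by limma), beside 10.6% of all genes. Of 9 other settings, 3 ended the Sox17 call, as did 7 of 8 fits that each left out 1 library. All 6 differences with RA were negative, with a median of -0.63. The 4 endothelial markers summed to 23.7 to 24.3, 32.6 to 32.9, 4.59 to 8.87 and 7.73 to 10 RPKM in that order of groups. Pecam1 made up most of the untreated sums, at 19.3 to 26.6 RPKM, and was at 0.659 to 3.75 RPKM with RA. Tek was also lower with RA, while Kdr and Cdh5 were higher in both genotypes. The 5 neural markers in the files summed to 26.6 to 27.6, 45.4 to 48.8, 70.0 to 85.6 and 62.0 to 73.5 RPKM in the same order. The 7 pluripotency markers summed to 2818 to 2826 RPKM in wild type without RA and 2469.6 to 2569.8 in GLP 3A without RA. With RA they summed to 57.7 to 65.3 RPKM in wild type and 63.9 to 88.7 in GLP 3A. Of the 7, limma called Zfp42 lower in GLP 3A without RA (-2.20 ± 0.29, adjusted p = 0.00893) and 0 higher. Over all genes 4.15% were called lower and 7.52% higher. With RA it called Nanog (2.25 ± 0.31, adjusted p = 0.0146) and Tdgf1 (1.80 ± 0.32, adjusted p = 0.0261) higher, and 0 lower. Of 9 other settings, 1 ended the Nanog call, 2 the Tdgf1 call and 0 the Zfp42 call without RA. Leaving out 1 library at a time ended the Zfp42 call without RA in 4 of 8 fits, Nanog in 1 and Tdgf1 in 6. The call of the Zfp42 response difference ended in 4 of 8 settings and in 6 of 8 such fits. The part of other cell types in the levels of the contractile genes was not tested.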

How the data were processed

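Per the labels, RNA extracted with Trizol and treated with DNase was sequenced single-end from 8 libraries, 2 per group; the other 32 of the 40 samples are not analysed here. The authors deposited RPKM per gene symbol and locus, 23234 symbols per file, per the file headers. Tools listed in the submitters' processing notes are TopHat, Cufflinks, SAMtools and Bowtie 0.12.7, with build mm9. The strand protocol, and how reads shared by overlapping or near-identical genes were assigned, stay unstated in the sources used here.

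Groups were taken from the labels. On log2(RPKM + 1), limma 3.58.1 (R 4.3.3) fitted 4 group means over all 8 libraries, empirical Bayes with an intensity trend, two-sided. Genes reaching 1 RPKM in 2 or more libraries, 13198 in all, entered the Benjamini-Hochberg adjustment and were called under 0.05. In all, 3 comparisons were tested (genotype without RA, genotype with RA and the difference of RA responses); the RA comparisons were described only, as 2-fold or more with no overlap. The fit was tested on simulated data. Relative depth was estimated from the smallest steps between low values, so read counts, and counting intervals, are not known. From each related list the text names the genes with the largest called and uncalled differences, up to 4 and 2, and its defining markers; genes most like Acta2 are the 5 of highest r among named genes, of which 1 is not reported here. The contractile genes, the lists and the naming rule were chosen with earlier results of these data known. Other settings tried were pseudocounts of 0.1 and 0.5, no filter, a filter of 5 RPKM, 2 other scalings, no trend, only the 4 libraries compared, a replicate block and each library left out.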

Additional observations from a re-analysis of the deposited data

How the results depend on the processing

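Of the contractile genes called between genotypes without RA (4 as reported), 0 were called with no filter on low values, where more genes entered the adjustment, and 1 (Myl9) under quantile normalization; leaving out 1 library each gave 0 to 4. With RA (1 as reported), 0 were called with no filter and 0 with only the 4 libraries compared, and leaving out 1 library each gave 0 to 3. For the difference of RA responses (0 as reported) the range was 0 to 1. The cause was not tested. The 8 genes tested were 2-fold or more higher with RA in each genotype under every setting that kept them; the filter of 5 RPKM removes Actg2.

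Signs turned in small, uncalled estimates. The difference of RA responses was -0.13 for Acta2 at a pseudocount of 0.1, with -0.28 to 0.60 over the libraries left out, and for Cnn1 -0.46 at 0.1, -0.12 at 0.5 and -0.24 to 0.44. With RA, Tpm1 was at 0.15 under quantile normalization and -0.27 to 0.27 over the libraries left out, Cnn2 at -0.08 to 0.30 and Tagln at -0.06 to 0.54. Without RA, Actg2 ranged from -0.03 to 0.03.

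Some settings ended single calls. Tagln without RA had an adjusted p of 0.0578 under median-of-ratios scaling, 0.135 with no filter, 0.0554 with no trend and 0.0887 under quantile normalization. Cnn2 (0.0776 and 0.0519) and Tpm1 (0.0779 and 0.0528) were not called with no filter or under quantile normalization, nor were Myl9 (0.068) and, with RA, Tpm2 (0.0999) with no filter; Tpm2 was at 0.234 with only the 4 libraries compared. Acta2 without RA became called with only the 4 libraries compared (0.78, adjusted p = 0.0392; over all settings 0.0392 to 0.573). The fits of the listed genes outside the 9 under these settings were added after seeing the data. Counted here are 9 settings other than leaving out 1 library, among them the fit of only the 4 libraries compared. Of these 9 settings, 6 ended the calls of Ppp1r14a and Actc1 with RA and 5 that of Myh14 without RA. The calls of Rock1 without RA and Bmp4 with RA ended in 4 each. For the difference of RA responses, 5 of the 7 settings that gave a value ended the call of Nppa, 5 of 8 that of Pdgfra and 2 of 8 that of Cyr61.

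Same-numbered libraries of the groups deviated together (r of 0.17 to 0.36 over the 6 pairs of groups), but with 2 numbers per group this does not establish pairing. With a replicate block Tagln without RA was at an adjusted p of 0.0533, leaving 3 contractile genes called without RA, 1 with RA and 0 for the difference of RA responses; no other call of theirs changed. Over all genes the block gave 1741, 1647 and 199 calls.

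Counts over all genes moved as well. Without RA, 1541 genes were called as reported, 3450 with only the 4 libraries compared and 206 to 2298 with 1 library left out. With RA the counts were 1401 as reported, 797 with no filter, 15 with only the 4 libraries compared and 298 to 2431 with 1 library left out. For the difference of RA responses they were 238 as reported, 158 at a pseudocount of 0.1, 146 under quantile normalization and 11 to 1128 with 1 library left out. Depth limits Actg2, Mylk and the untreated levels of Cnn1 and Myl9 most, since they lie near the lowest values in the files.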

Other observations

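Several heart muscle markers were called between the genotypes. Of 7 cardiac markers tested, limma called 4 higher and 0 lower in GLP 3A given RA, where 5.30% of all genes were called higher and 5.31% lower. Without RA 1 was called higher and 0 lower, beside 7.52% and 4.15% of all genes. Myl4, an atrial light chain, measured 4.61 and 4.84 RPKM in wild type without RA, 15.5 and 15.6 in GLP 3A without RA, 3.00 and 2.15 in wild type given RA and 14.5 and 12.0 in GLP 3A given RA. It was higher in GLP 3A by 1.53 ± 0.14 without RA (SE, n = 2 per genotype, adjusted p = 0.00291) and by 2.00 ± 0.14 with RA (adjusted p = 0.00215). Nppa, the atrial natriuretic peptide gene, was at 0.259 and 0.596 RPKM in wild type given RA and 4.45 and 2.73 RPKM in GLP 3A given RA (1.67 ± 0.22, adjusted p = 0.0136), and the difference of its RA responses was called (1.85 ± 0.31, adjusted p = 0.0471). Actc1 and Myl7, described above among the paralogues, were the other two. With 1 library left out at a time, the Myl4 calls held in 8 of 8 fits in both comparisons, Nppa with RA was lost in 1 (adjusted p up to 0.0575) and the difference of its RA responses in 6 (0.206). Nkx2-5, a cardiac transcription factor, differed by -0.39 ± 0.13 with RA and was not called (adjusted p = 0.107). The higher levels in GLP 3A given RA were not limited to heart markers. Of 3 skeletal muscle markers tested, limma called 2 higher with RA and 0 lower. These were Mylpf, described above, and Tnnt3 (1.57 ± 0.21, adjusted p = 0.0139), which shares its locus with Gm14492 and Lsp1.

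Fibroblast markers went in both directions between the genotypes after RA. Col1a1 was at 15.4 and 19.0 RPKM in wild type and 26.0 and 24.5 RPKM in GLP 3A (0.53 ± 0.11, adjusted p = 0.0358). Pdgfra, a mesenchymal growth factor receptor, was at 10.9 and 8.65 RPKM in wild type and 2.71 and 3.41 RPKM in GLP 3A (-1.40 ± 0.14, adjusted p = 0.00644), and the difference of its RA responses was called as well (-1.36 ± 0.20, adjusted p = 0.038). Of 10 fibroblast markers tested these were the 2 called with RA, where limma called 10.6% of all genes. Without RA it called 0, beside 11.7% of all genes, and 0 had an unadjusted p under 0.05, beside 28.3%. With 1 library left out at a time, Pdgfra with RA was called in 8 of 8 fits, while Col1a1 was lost in 6 (adjusted p up to 0.103) and the difference of the Pdgfra responses in 6 (0.187).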
